A study of Mus musculus with 24 samples.

Results

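Type I interferon-stimulated genes were followed in mouse splenic CD4+ T cells as the cells were activated through the T cell receptor. The set was a list of 44 gene symbols, each matched to 1 mouse gene identifier of the count table (the RIG-I gene under both of its names, Ddx58 and Rigi). All 44 were found among the 54446 identifiers of the table, and all 44 were among the 15325 genes with enough counts to be tested.

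Type I interferons bind the receptor formed by IFNAR1 and IFNAR2, and the kinases JAK1 and TYK2 on that receptor phosphorylate STAT2. With IRF9 it takes part in the factor ISGF3, which binds the interferon-stimulated response element (ISRE) in the promoters of antiviral genes. Interferon gamma, a cytokine that activated T cells themselves secrete, acts mainly at another element (GAS), and its targets overlap with the type I set.

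The libraries came from 6 C57BL6 mice. Wild type by their labels (WT) were those numbered 1, 3 and 4, and AIM2-/- (Aim2-/-) those numbered 1, 2 and 4, which lack a cytosolic sensor of double-stranded DNA. CD4+ T cells from the spleen of each mouse were taken without stimulation (0 h) and after 3, 6 and 24 h of culture with antibodies to CD3 and CD28, giving 8 groups of 3 libraries. The animals are labelled as knockouts, with no restriction of the deletion to T cells. No interferon was added per the labels, and no unstimulated culture was kept for 24 h, so that time in culture and stimulation cannot be told apart.

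Library totals lay between 19715161 and 21627018 counts, and levels are given as CPM, the counts scaled by library size. Aim2 itself went against 1 label: in the mouse labelled WT 1 it stood at 21.5 CPM at 0 h and 5.57 CPM at 24 h, beside 67.5 to 75.0 CPM and 34.0 to 38.6 CPM in the other WT mice and 15.7 to 20.1 CPM and 5.28 to 7.15 CPM in Aim2-/- mice. Counts and named differences between the genotypes are therefore also given without that mouse. The 7 CD4 T cell markers summed to 2652 to 3971 CPM per library. Sums of 6 myeloid markers were 34.4 to 55.7 CPM in WT and 102 to 326 CPM in Aim2-/- libraries at 0 h, those of 6 neutrophil markers were 23.8 to 27.0 and 101 to 249.6 CPM, and those of 6 B cell markers were 8.36 to 10.2 and 16.2 to 42.3 CPM. In cells measured in bulk, more cells of a type and more RNA per cell cannot be told apart.

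Promoters of the set are shown first because the ISRE is the element that ISGF3 binds. Binding was not measured here. RefSeq promoters (GRCm38.p6, 250 bases before to 50 bases after the start) were at hand for 33 of the 44 genes. The ISRE letters, GAAA followed by 2 bases of any kind and GAAA again, searched on both strands, occurred in at least 1 promoter of 14 of the 33 (42.4%) and of 3.99% of all 27025 genes with promoters of that length. The GAS letters TTCNNNGAA, which read the same on both strands and whose end can overlap with the start of an ISRE match, as it does in Bst2, occurred in 7 of the 33 (21.2%) and in 9.55% of all genes counted the same way. The Ifit1 promoter holds 2 ISRE matches, Isg15 holds 3 that overlap, and Bst2 holds 2 that overlap. They are printed 5′ to 3′ on the strand of the gene with the ISRE letters, or their reverse complement, in capitals.
Ifit1, chr19:34640639-34640938, + strand: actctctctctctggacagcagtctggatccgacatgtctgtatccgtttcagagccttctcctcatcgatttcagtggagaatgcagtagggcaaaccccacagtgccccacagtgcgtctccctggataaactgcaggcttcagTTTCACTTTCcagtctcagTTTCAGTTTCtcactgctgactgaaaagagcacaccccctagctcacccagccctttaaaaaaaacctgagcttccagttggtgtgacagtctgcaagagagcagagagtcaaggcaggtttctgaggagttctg
Isg15, chr4:156200769-156201068, - strand: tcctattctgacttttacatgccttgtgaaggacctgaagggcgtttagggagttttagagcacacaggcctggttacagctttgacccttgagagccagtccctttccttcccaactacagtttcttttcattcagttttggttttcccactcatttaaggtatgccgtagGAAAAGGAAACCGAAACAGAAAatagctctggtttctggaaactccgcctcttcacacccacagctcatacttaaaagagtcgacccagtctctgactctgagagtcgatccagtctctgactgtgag
Bst2, chr8:71537423-71537722, - strand: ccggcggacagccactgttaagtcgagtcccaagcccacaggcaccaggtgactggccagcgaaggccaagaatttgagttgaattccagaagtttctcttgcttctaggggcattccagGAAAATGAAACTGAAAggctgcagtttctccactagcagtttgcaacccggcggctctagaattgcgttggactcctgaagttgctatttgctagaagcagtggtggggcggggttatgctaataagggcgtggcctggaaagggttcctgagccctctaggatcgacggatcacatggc

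For other genes, of members that took different courses below, 1 ISRE match each is given with 10 bases on each side, read in the direction of the motif. Ifit3, Ifit3b, Oas1a and Oas1g hold a further match. In Oas1a and Oas1g it overlaps with the printed match and is not marked.
Ifit3, chr19:34583407-34583416, also Ifit3b, chr19:34607803-34607812: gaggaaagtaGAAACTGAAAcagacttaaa
Oas1a, chr5:120907530-120907539, also Oas1g, chr5:120887616-120887625: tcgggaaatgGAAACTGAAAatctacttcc
Oas3, chr5:120777725-120777734: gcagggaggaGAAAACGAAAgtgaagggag
Eif2ak2, chr17:78882545-78882554: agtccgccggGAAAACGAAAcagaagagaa
Rsad2, chr12:26456563-26456572: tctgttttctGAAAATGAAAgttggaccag
Ddx58, chr4:40239814-40239823: ctggccatagGAAATCGAAActgcctcagg
The stretches of Ifit3 and Ifit3b are identical, as are those of Oas1a and Oas1g. Each pair lies on one chromosome, 19 and 5, and how reads were divided within a pair was not tested, so the levels of these genes are uncertain. The match in Ifit1 nearest to the start of transcription began 85 bases before it, those in Isg15 and Bst2 66 and 124 bases, and that in Rsad2 120 bases. Genes that were called higher after 3 or 6 h in WT cells without a block, as described below, held the ISRE letters in 10 of the 24 with a promoter, and of the other members 4 of 9 held them (Ddx58, Isg15, Oas1g and Rsad2).

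In WT cells, activation was followed by an early rise of the set and a fall by 24 h. Called means an adjusted p under 0.05 in edgeR's quasi-likelihood test. At 3 h against 0 h, 29 of the 44 members were called higher and 1 lower, where 16.2% and 16.4% of all 15325 genes tested were. The median log2 fold change of the members was 0.81, against 0.02 over all genes. At 6 h, 29 members were called higher and 2 lower (26.4% and 24.8% of all genes), with a median of 1.13 against 0.02. At 24 h, 7 members were called higher and 20 lower than at 0 h (36.6% and 34.8% of all genes), and the median was -0.44 against -0.01. From 6 h to 24 h, 1 member was called higher and 38 lower (29.6% and 28% of all genes), with a median of -1.67 against -0.04. These comparisons share their 0 h or 6 h libraries.

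In Aim2-/- cells the set was also called higher early and lower at 24 h than at 6 h. At 3 h 26 members were called higher and 1 lower (16.1% and 14.6% of all genes), with a median log2 fold change of 0.84 against 0.02. At 6 h 27 were called higher and 3 lower (28.5% and 22.7%), with a median of 0.80 against 0.08. At 24 h 6 were called higher and 15 lower than at 0 h (36.8% and 33.5%), with a median of -0.08 against 0.03. The members called lower than at 0 h were 34.1% of the set, close to the share of all genes. Between 6 h and 24 h the counts were 1 higher and 38 lower (27.4% and 27%), with a median of -1.21 against -0.04.

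**Figure D1:**
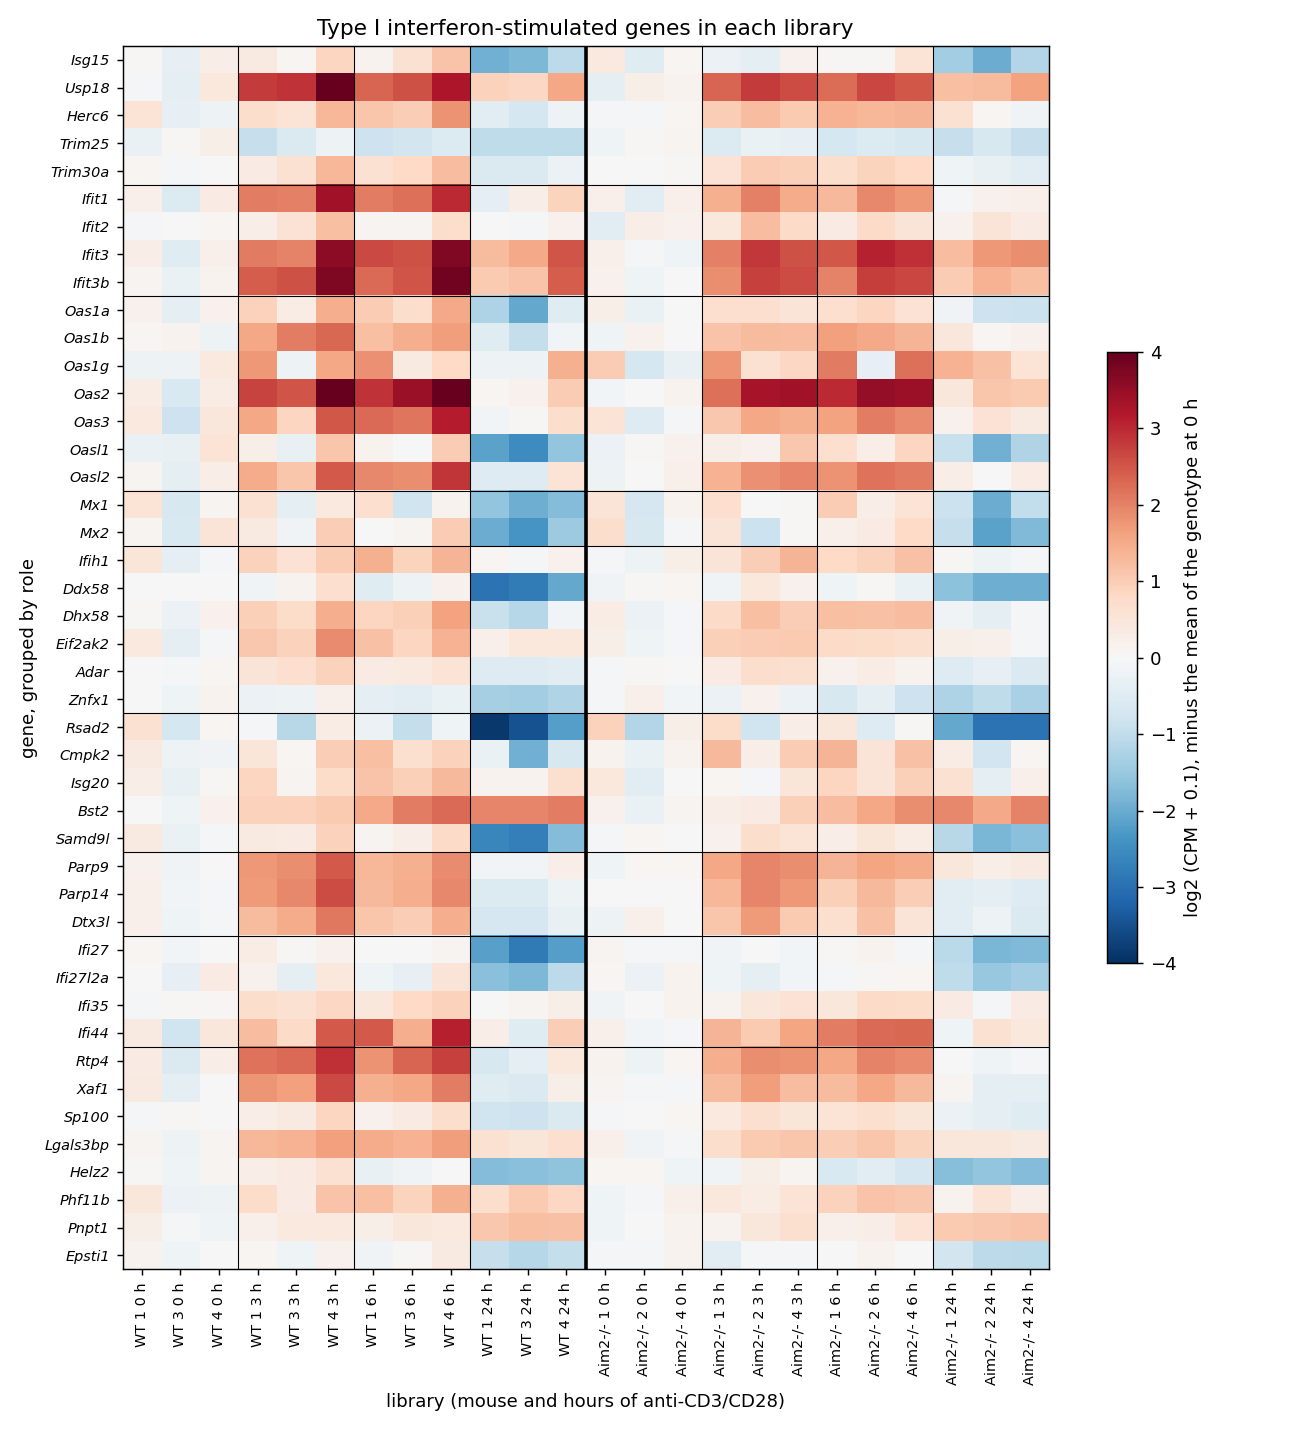
Each cell of the heat map shows 1 of the 44 genes (rows, grouped by role) in 1 of the 24 libraries (columns, by genotype, time and mouse) as log2 (CPM + 0.1) minus the mean of the same genotype at 0 h, red for higher and blue for lower. Most rows turn red at 3 and 6 h and return towards white or blue at 24 h in both genotypes, and the column of mouse WT 4 is the reddest of its group at 3 and 6 h.

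Genes of ISG15 conjugation and ubiquitin ligation parted ways. The group has 5 members, of which 3 were called higher and 1 lower at 3 h in either genotype. Usp18 encodes the protease that strips ISG15 from its targets and that also binds IFNAR2 and damps the receptor. Given in the order of the mice above, as everywhere below, it stood in WT cells at 9.10, 7.39 and 12.9 CPM at 0 h, 66.5, 70.7 and 152 at 3 h, 47.8, 56.1 and 91.2 at 6 h, and 18.3, 17.1 and 28.3 at 24 h. Usp18 in Aim2-/- cells stood at 7.79, 12.2 and 11.3 CPM at 0 h, 51.98, 72.4 and 63.5 at 3 h, 48.6, 65.5 and 58.3 at 6 h, and 23.8, 24.8 and 31.5 at 24 h. Every stimulated library lay above every 0 h library in both genotypes, and the WT 4 library was the highest at 3 h. The log2 fold change of Usp18 at 3 h was 3.30 (SE 0.33, adjusted p = 1.6e-07) in WT and 2.58 (SE 0.32, adjusted p = 3.82e-06) in Aim2-/- cells, and at 24 h it was still 1.11 (SE 0.32, adjusted p = 0.00349) and 1.35 (SE 0.31, adjusted p = 0.00065).

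Isg15 itself, the ubiquitin-like protein, took another course. In WT cells it stood at 25.9, 20.1 and 30.5 CPM at 0 h, 32.6, 26.3 and 45.5 at 3 h, 27.96, 38.04 and 55.7 at 6 h, and 6.53, 7.19 and 12 at 24 h. Isg15 in Aim2-/- cells stood at 51.5, 28.4 and 41.7 CPM at 0 h, 33.6, 30.4 and 44.2 at 3 h, 40.5, 40.2 and 57.2 at 6 h, and 15, 9.97 and 17.6 at 24 h. The 3 h and 6 h libraries overlapped with the 0 h libraries in both genotypes, while every 24 h library lay below all others. The log2 fold change of Isg15 in WT cells was 0.45 (SE 0.29, adjusted p = 0.258) at 3 h, then 0.67 (SE 0.29, adjusted p = 0.0592) at 6 h, neither called, and with each mouse as a block it was called at both times, at 0.43 (SE 0.15, adjusted p = 0.0292) and 0.64 (SE 0.15, adjusted p = 0.00118). At 24 h Isg15 had fallen, its log2 fold change being -1.57 (SE 0.31, adjusted p = 0.000101) in WT and -1.51 (SE 0.30, adjusted p = 0.000121) in Aim2-/- cells. Herc6, the main ISG15 ligase of the mouse, rose at 6 h by 1.30 (SE 0.25, adjusted p = 0.000188) in WT and 1.37 (SE 0.25, adjusted p = 0.000126) in Aim2-/- cells. Trim30a rose in a like way, with a log2 fold change of 0.90 and 0.80. Trim25, the ligase that modifies RIG-I, was the member called lower at every time, with -0.56 (SE 0.15, adjusted p = 0.0051) at 3 h, then -1.03 (SE 0.15, adjusted p = 2.31e-06) at 24 h in WT cells and -0.39 (SE 0.15, adjusted p = 0.0497) and -0.83 (SE 0.15, adjusted p = 3.86e-05) in Aim2-/- cells. The WT value at 3 h came with overlapping libraries (179, 225 and 256 CPM at 0 h and 114, 146 and 189 CPM at 3 h). The 3 h call of Trim25 was lost in WT cells without libraries of WT 3 (highest adjusted p = 0.0862, log2 value -0.54) and in Aim2-/- cells without libraries of Aim2-/- 1, Aim2-/- 2 or Aim2-/- 4 (highest adjusted p = 0.224, log2 value -0.37).

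All 4 IFIT genes, whose proteins bind foreign RNA ends and block their translation, rose at 3 h in both genotypes. Ifit1 in WT cells stood at 8.996, 5.27 and 9.73 CPM at 0 h, 32.4, 31.9 and 80.5 at 3 h, 32.1, 36.2 and 61.8 at 6 h, and 5.87, 9.40 and 14.4 at 24 h. Its Aim2-/- libraries held 10.9, 7.09 and 11.02 CPM at 0 h, 25.6, 38.6 and 26.7 at 3 h, 23.2, 35.9 and 32.1 at 6 h, and 9.14, 10.6 and 10.9 at 24 h. Every 3 h and 6 h library of Ifit1 lay above every 0 h library of its genotype, and the 24 h libraries overlapped with those at 0 h. The log2 fold change of Ifit1 was 2.59 (SE 0.38, adjusted p = 1.75e-05) at 3 h, then 2.44 (SE 0.37, adjusted p = 1.26e-05) at 6 h in WT cells, and 1.65 (SE 0.36, adjusted p = 0.00162) and 1.65 (SE 0.36, adjusted p = 0.000722) in Aim2-/- cells. Ifit3 stayed up for longer, and in WT cells stood at 5.10, 2.996 and 4.87 CPM at 0 h, 18.3, 16.99 and 51.5 at 3 h, 26.6, 24.9 and 55.6 at 6 h, and 10.3, 12.1 and 24.5 at 24 h. Ifit3 in Aim2-/- cells stood at 4.60, 3.89 and 3.54 CPM at 0 h, 16.5, 28.6 and 23.6 at 3 h, 22.9, 34.5 and 30.8 at 6 h, and 9.48, 13.4 and 14.8 at 24 h. All stimulated libraries of Ifit3 lay above those of 0 h, at 24 h too. Its rise was 3.04 (SE 0.44, adjusted p = 5.28e-06) at 6 h, then 1.85 (SE 0.43, adjusted p = 0.000612) at 24 h in WT cells, and 2.87 (SE 0.44, adjusted p = 1.27e-05) and 1.65 (SE 0.43, adjusted p = 0.00192) in Aim2-/- cells. The neighbouring copy Ifit3b rose by 3.13, 3.15 and 1.76 at 3, 6 and 24 h in WT cells and by 2.54, 2.61 and 1.26 in Aim2-/- cells. Ifit2 rose least of the family, by 0.74 (SE 0.23, adjusted p = 0.0152) at 3 h in WT and 0.82 (SE 0.23, adjusted p = 0.00976) in Aim2-/- cells. At 6 h it was at 0.33 and 0.52, called only with each mouse as a block, at 0.30 (SE 0.12, adjusted p = 0.0413) and 0.53 (SE 0.13, adjusted p = 0.00112). The 3 h call of Ifit2 was lost in WT cells without libraries of WT 1, WT 3 or WT 4 (highest adjusted p = 0.225, log2 value 0.44) and in Aim2-/- cells without libraries of Aim2-/- 1 or Aim2-/- 2 (highest adjusted p = 0.079, log2 value 0.62). In Aim2-/- cells the call of Ifit1 at 3 h was lost without libraries of Aim2-/- 2 (highest adjusted p = 0.0569, log2 value 1.25), and that of Ifit3b at 24 h without libraries of Aim2-/- 2 or Aim2-/- 4 (highest adjusted p = 0.151, log2 value 1.07).

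**Figure D2:**
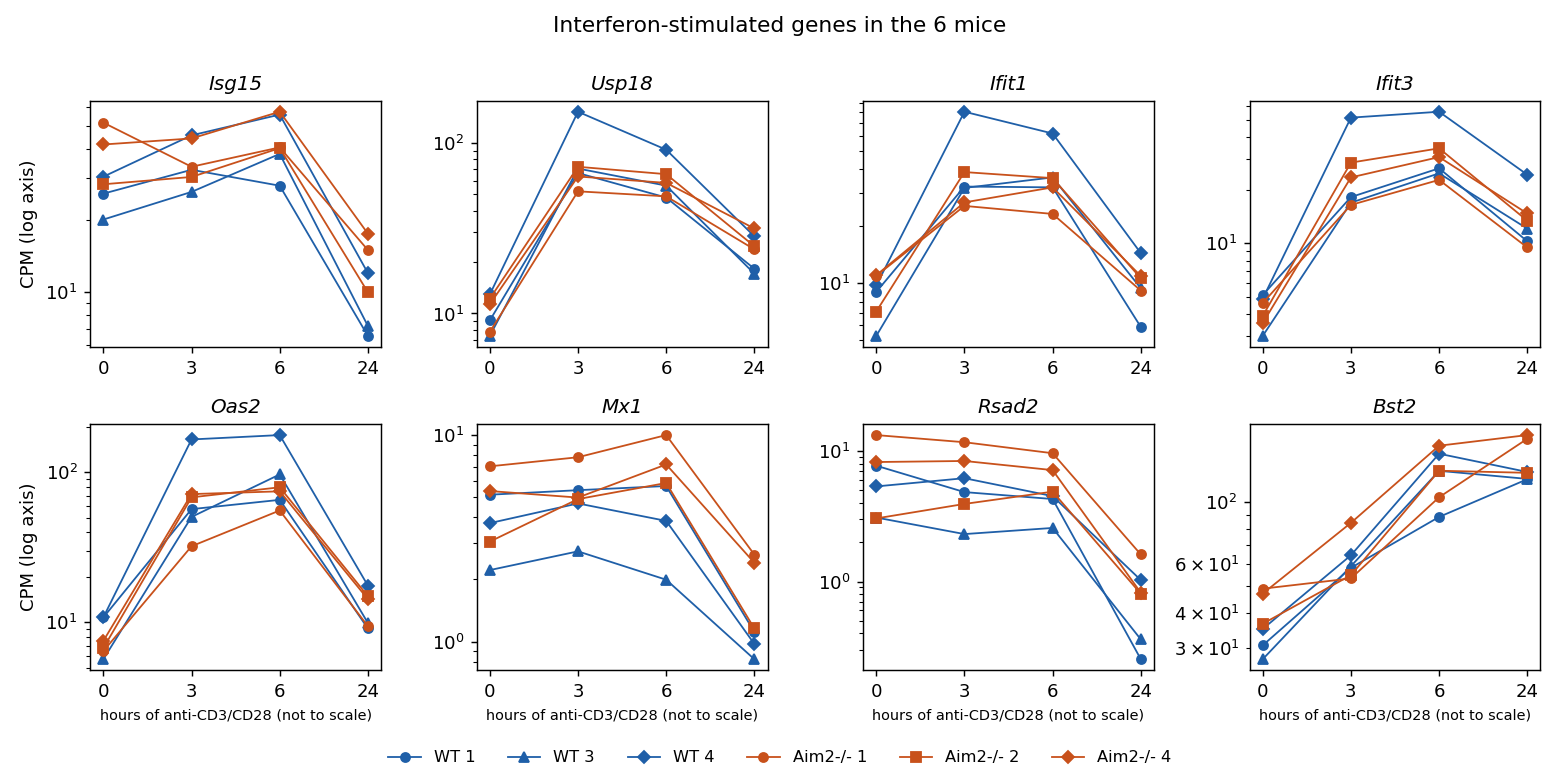
CPM of 8 members (log axes) against hours of stimulation, 1 line per mouse, with WT in blue and Aim2-/- in orange. Usp18, Ifit1, Ifit3 and Oas2 climb at 3 and 6 h, Isg15, Mx1 and Rsad2 are lowest at 24 h, and Bst2 reaches 120.4 to 128 CPM in WT and 127 to 173 CPM in Aim2-/- cells at 24 h.

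The OAS family makes short oligoadenylates that activate RNase L. Of its 7 members, 5 were called higher at 3 h in WT and 4 in Aim2-/- cells. Oas2 had the largest log2 fold change at 3 and 6 h in both genotypes among members with at least 1 CPM. It stood in WT cells at 10.8, 5.68 and 10.8 CPM at 0 h, 56.9, 50.5 and 166 at 3 h, 65.6, 96.9 and 177 at 6 h, and 9.11, 9.91 and 17.6 at 24 h. Oas2 in Aim2-/- cells stood at 6.44, 6.74 and 7.53 CPM at 0 h, 32.2, 68.1 and 71.7 at 3 h, 55.7, 79.5 and 74.7 at 6 h, and 9.43, 14.9 and 14.3 at 24 h. The 3 h and 6 h libraries lay well above all 0 h libraries, and those of WT 4 were the highest at 3, 6 and 24 h. The rise of Oas2 was 3.32 (SE 0.46, adjusted p = 1.02e-05) at 3 h, then 3.64 (SE 0.46, adjusted p = 1.17e-06) at 6 h in WT cells, and 3.05 (SE 0.46, adjusted p = 3.91e-05) and 3.34 (SE 0.47, adjusted p = 4.61e-06) in Aim2-/- cells. From 6 h to 24 h it fell again, with -3.21 (SE 0.45, adjusted p = 4.06e-06) and -2.44 (SE 0.44, adjusted p = 9.51e-05). Against 0 h, Oas2 at 24 h was not called in Aim2-/- cells, at 0.90 (SE 0.46, adjusted p = 0.0863), and was called there with each mouse as a block, at 0.88 (SE 0.25, adjusted p = 0.00341).

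Oas3 rose by 1.69 and 2.49 at 3 and 6 h in WT cells and by 1.31 and 1.80 in Aim2-/- cells. Oasl2, an OAS-like protein, rose in WT cells by 1.77 and 2.26 and in Aim2-/- cells by 1.74 and 2.02. Oas1a rose at 6 h in WT cells, by 1.11 (SE 0.31, adjusted p = 0.00538), and in Aim2-/- cells stood at 0.70 (SE 0.31, adjusted p = 0.0673), called with each mouse as a block (0.71, SE 0.16, adjusted p = 0.000766). Oas1b, annotated as a polymorphic pseudogene, rose by 1.99 (SE 0.20, adjusted p = 1.45e-07) at 3 h, then 1.45 (SE 0.19, adjusted p = 2.07e-06) at 6 h in WT cells, and by 1.22 (SE 0.19, adjusted p = 6.41e-05) and 1.51 (SE 0.19, adjusted p = 1.64e-06) in Aim2-/- cells. Oasl1 showed no called rise, and at 24 h its fall against 0 h was -2.16 (SE 0.41, adjusted p = 8.98e-05) in WT and -1.32 (SE 0.39, adjusted p = 0.00558) in Aim2-/- cells. With each mouse as a block, Oasl1 was called higher in Aim2-/- cells at 3 h (0.51, SE 0.19, adjusted p = 0.0389) and at 6 h (0.60, SE 0.19, adjusted p = 0.0103). Oas1g was at the edge of detection, with at most 21 counts in a library and at most 3 counts, the floor used here, in 11 of the 24 libraries. No fold is given for it. In Aim2-/- cells the call of Oas3 at 3 h was lost without libraries of Aim2-/- 2 or Aim2-/- 4 (highest adjusted p = 0.154, log2 value 0.99), and that of Oasl1 at 24 h without libraries of Aim2-/- 2 (highest adjusted p = 0.0644, log2 value -1.05).

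The Mx genes, of a family of antiviral GTPases, were not called higher at 3 or 6 h. Whether these mice make working Mx proteins was not measured. Mx1 in WT cells stood at 5.15, 2.22 and 3.75 CPM at 0 h, 5.41, 2.74 and 4.67 at 3 h, 5.67, 1.995 and 3.84 at 6 h, and 1.11, 0.822 and 0.975 at 24 h. Mx1 in Aim2-/- cells stood at 7.07, 3.05 and 5.36 CPM at 0 h, 7.82, 4.90 and 4.99 at 3 h, 10.01, 5.87 and 7.21 at 6 h, and 2.64, 1.16 and 2.41 at 24 h. The 3 h and 6 h libraries overlapped with those of 0 h in both genotypes, and all 24 h libraries lay below. Mx1 had fallen at 24 h, the log2 value being -1.93 (SE 0.44, adjusted p = 0.000536) in WT and -1.32 (SE 0.41, adjusted p = 0.00751) in Aim2-/- cells. At 6 h in Aim2-/- cells it stood at 0.58 (SE 0.39, adjusted p = 0.231), which was called with each mouse as a block (0.61, SE 0.18, adjusted p = 0.00615). Mx2, annotated as a polymorphic pseudogene, stood at 5 to 86 counts per library and fell at 24 h, with -2.19 (SE 0.53, adjusted p = 0.000874) and -1.74 (SE 0.48, adjusted p = 0.0032).

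Among the 6 genes of RNA sensing and double-stranded RNA binding, those of the 3 RIG-I-like receptors differed. Ifih1, which encodes MDA5, rose at 6 h by 1.20 (SE 0.21, adjusted p = 5.62e-05) in WT and 0.96 (SE 0.21, adjusted p = 0.000634) in Aim2-/- cells. Dhx58, which encodes LGP2, rose by 1.17 (SE 0.24, adjusted p = 0.000358) and 1.20 (SE 0.24, adjusted p = 0.000321). Ddx58, which encodes RIG-I, was high in resting WT cells and stood there at 120.5, 118 and 118 CPM at 0 h, 108, 131 and 188 at 3 h, 84.7, 103 and 133 at 6 h, and 15.3, 16.8 and 28.8 at 24 h. Ddx58 in Aim2-/- cells stood at 86.7, 98.9 and 101 CPM at 0 h, 85.8, 126 and 107 at 3 h, 85.5, 98.2 and 79.8 at 6 h, and 30.6, 24.3 and 24.4 at 24 h. Its early libraries overlapped with 0 h in both genotypes, and its 24 h libraries lay below all others. Ddx58 had a log2 fold change at 24 h of -2.55 (SE 0.23, adjusted p = 2.22e-09) in WT and -1.85 (SE 0.22, adjusted p = 2.14e-07) in Aim2-/- cells. Eif2ak2, the gene of the kinase PKR, rose at 3 h by 1.34 (SE 0.21, adjusted p = 4.12e-05) and 0.99 (SE 0.21, adjusted p = 0.000967). Adar, the RNA-editing enzyme, rose at 3 h by 0.71 (SE 0.10, adjusted p = 1.92e-05) and 0.57 (SE 0.10, adjusted p = 0.000296) and by 24 h had fallen below 0 h, to -0.49 and -0.46. Znfx1, a helicase that senses viral RNA at mitochondria, fell at 6 h, to -0.36 (SE 0.14, adjusted p = 0.038) and -0.60 (SE 0.14, adjusted p = 0.00118), and at 24 h, to -1.31 and -1.18. The call of Znfx1 at 6 h in WT cells was lost without libraries of WT 1, WT 3 or WT 4 (highest adjusted p = 0.15, log2 value -0.34).

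The 5 antiviral effectors included the members with the largest fall and the largest late rise. Rsad2 encodes viperin, which makes a chain-terminating nucleotide. In WT cells it stood at 7.75, 3.10 and 5.37 CPM at 0 h, 4.86, 2.31 and 6.21 at 3 h, 4.30, 2.58 and 4.53 at 6 h, and 0.253, 0.359 and 1.03 at 24 h. Rsad2 in Aim2-/- cells stood at 13.3, 3.05 and 8.27 CPM at 0 h, 11.7, 3.94 and 8.42 at 3 h, 9.66, 4.90 and 7.17 at 6 h, and 1.61, 0.805 and 0.820 at 24 h. Its libraries of 0, 3 and 6 h overlapped, and all those of 24 h lay below. Rsad2 had a log2 fold change at 24 h of -3.29 (SE 0.62, adjusted p = 6.8e-05) in WT and -2.92 (SE 0.57, adjusted p = 0.000128) in Aim2-/- cells. Cmpk2, a mitochondrial nucleotide kinase encoded next to Rsad2, did rise at 6 h, by 0.93 (SE 0.36, adjusted p = 0.036) and 1.06 (SE 0.36, adjusted p = 0.0173). Isg20, an exonuclease, rose at 6 h by 1.14 (SE 0.26, adjusted p = 0.00079) and 0.76 (SE 0.25, adjusted p = 0.0151). The 6 h call of Cmpk2 was lost in WT cells without libraries of WT 1, WT 3 or WT 4 (highest adjusted p = 0.161, log2 value 0.85) and in Aim2-/- cells without libraries of Aim2-/- 1, Aim2-/- 2 or Aim2-/- 4 (highest adjusted p = 0.0959, log2 value 1.06), and that of Isg20 in Aim2-/- cells without libraries of Aim2-/- 2 or Aim2-/- 4 (highest adjusted p = 0.126, log2 value 0.65).

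Bst2 encodes tetherin, which holds budding virions at the cell surface, and it stayed high to 24 h. In WT cells Bst2 stood at 30.7, 27.4 and 35.1 CPM at 0 h, 58.1, 58.9 and 64.4 at 3 h, 88.3, 129 and 148 at 6 h, and 120.4, 121 and 128 at 24 h. Bst2 in Aim2-/- cells stood at 48.9, 36.7 and 46.98 CPM at 0 h, 53.2, 54.7 and 84.1 at 3 h, 104, 129 and 159 at 6 h, and 168, 127 and 173 at 24 h. No stimulated library overlapped with 0 h in either genotype. Bst2 rose by 0.96 (SE 0.20, adjusted p = 0.000684), 1.97 (SE 0.20, adjusted p = 5.36e-08) and 1.99 (SE 0.20, adjusted p = 1.39e-08) at 3, 6 and 24 h in WT cells. In Aim2-/- cells the rise was 0.53 (SE 0.19, adjusted p = 0.0419), 1.56 (SE 0.20, adjusted p = 1.29e-06) and 1.82 (SE 0.20, adjusted p = 4.96e-08). Samd9l, a restriction factor that can block translation, stood in WT cells at 172, 112 and 127 CPM at 0 h, 174, 171 and 255 at 3 h, 145, 162 and 228 at 6 h, and 21.9, 20.2 and 40.2 at 24 h. Its early log2 fold changes were 0.54 (SE 0.24, adjusted p = 0.0896) in WT and 0.49 (SE 0.24, adjusted p = 0.136) in Aim2-/- cells at 3 h, called with each mouse as a block, at 0.51 (SE 0.19, adjusted p = 0.0324) and 0.49 (SE 0.19, adjusted p = 0.0403). At 24 h Samd9l had fallen, the log2 value being -2.32 (SE 0.26, adjusted p = 5.2e-08) in WT and -1.50 (SE 0.25, adjusted p = 1.65e-05) in Aim2-/- cells. The 3 h call of Bst2 in Aim2-/- cells was lost without libraries of Aim2-/- 1, Aim2-/- 2 or Aim2-/- 4 (highest adjusted p = 0.316, log2 value 0.29).

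The ADP-ribosylation genes Parp9 and Parp14 and the ligase gene Dtx3l, whose protein pairs with PARP9, all rose at 3 h. Parp14 in WT cells stood at 204, 162 and 167 CPM at 0 h and at 439, 486 and 665 CPM at 6 h, and at 24 h it was back at 119.9, 122 and 155 CPM. Its rise at 3 h was 2.13 (SE 0.20, adjusted p = 1.12e-07) in WT and 1.70 (SE 0.20, adjusted p = 2.57e-06) in Aim2-/- cells. Parp9 rose by 2.06 (SE 0.18, adjusted p = 2.91e-08) and 1.79 (SE 0.18, adjusted p = 2.56e-07), and Dtx3l by 1.66 (SE 0.22, adjusted p = 7.37e-06) and 1.30 (SE 0.22, adjusted p = 0.000132). At 24 h Parp14 was at -0.43 (SE 0.20, adjusted p = 0.0596) in WT and -0.43 (SE 0.20, adjusted p = 0.0573) in Aim2-/- cells against 0 h, both called lower with each mouse as a block, at -0.46 (SE 0.14, adjusted p = 0.00661) and -0.43 (SE 0.14, adjusted p = 0.00909).

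Of the 4 IFI genes, Ifi35 and Ifi44 rose and Ifi27 and Ifi27l2a did not. Ifi44 rose at 6 h by 2.46 (SE 0.47, adjusted p = 0.00016) and 2.26 (SE 0.46, adjusted p = 0.000352), from 1.75, 0.723 and 1.88 CPM in WT and 2.13, 1.67 and 1.72 CPM in Aim2-/- cells at 0 h. Ifi35 rose by 0.73 (SE 0.13, adjusted p = 7.26e-05) and 0.65 (SE 0.13, adjusted p = 0.000284). Ifi27, which encodes a small membrane protein, stood in WT cells at 83.9, 72.4 and 80.1 CPM at 0 h, 97.6, 81.8 and 88.8 at 3 h, 80.03, 77.1 and 84.1 at 6 h, and 17.5, 11.1 and 16.8 at 24 h. Ifi27 in Aim2-/- cells stood at 97.6, 84.99 and 87.5 CPM at 0 h, 82.1, 88.1 and 83.4 at 3 h, 93.5, 99.7 and 85.8 at 6 h, and 42.5, 25.5 and 26.1 at 24 h. Levels up to 6 h overlapped in both genotypes, and the 24 h libraries lay below them. Ifi27 had a log2 fold change at 24 h of -2.38 (SE 0.17, adjusted p = 5.42e-11) in WT and -1.52 (SE 0.16, adjusted p = 3.17e-08) in Aim2-/- cells. Its neighbour on chromosome 12, Ifi27l2a, fell as well, with -1.50 (SE 0.24, adjusted p = 8.19e-06) and -1.31 (SE 0.23, adjusted p = 3.95e-05).

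The remaining 8 members have diverse roles. Rtp4, a chaperone of membrane receptors, rose at 3 h by 2.46 (SE 0.28, adjusted p = 9.71e-07) in WT and 1.71 (SE 0.27, adjusted p = 7.3e-05) in Aim2-/- cells. Xaf1, a pro-apoptotic zinc finger protein, rose by 2.07 (SE 0.26, adjusted p = 3.76e-06) and 1.40 (SE 0.26, adjusted p = 0.000314). Lgals3bp, a secreted galectin ligand, rose by 1.45 (SE 0.12, adjusted p = 2.45e-08) and 0.95 (SE 0.12, adjusted p = 6.25e-06) and was still higher at 24 h, by 0.59 and 0.42. Sp100, a nuclear body protein, rose by 0.52 and 0.51, and Phf11b rose at 6 h by 1.16 and 1.06. Helz2, a helicase co-activator, fell at 24 h, with -1.68 (SE 0.12, adjusted p = 4.56e-11) and -1.68 (SE 0.12, adjusted p = 5.98e-11). Epsti1 fell at 24 h, with -1.01 and -0.96. The 3 h call of Sp100 was lost in WT cells without libraries of WT 4 (highest adjusted p = 0.0997, log2 value 0.26) and in Aim2-/- cells without libraries of Aim2-/- 2 (highest adjusted p = 0.0917, log2 value 0.44), and the 24 h call of Lgals3bp in Aim2-/- cells without libraries of Aim2-/- 2 (highest adjusted p = 0.0635, log2 value 0.33).

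Pnpt1, the mitochondrial exoribonuclease, was the member that was higher at 24 h than at 6 h. It stood at 51.98, 42.1 and 39.1 CPM at 0 h, 51.1, 58.4 and 58.2 at 3 h, 52.2, 59.9 and 57.7 at 6 h, and 93.4, 102 and 98.6 at 24 h in WT cells. The values in Aim2-/- cells were 33.05, 37.8 and 40.6 CPM at 0 h, 40.98, 50.7 and 57.96 at 3 h, 43.1, 44.2 and 54.7 at 6 h, and 76.2, 78.03 and 81.8 at 24 h. All 24 h libraries of Pnpt1 lay above all others of their genotype. The rise from 6 h to 24 h was 0.79 (SE 0.12, adjusted p = 1.3e-05) in WT and 0.73 (SE 0.12, adjusted p = 4.27e-05) in Aim2-/- cells.

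The members were also sorted by their course, as a description, since the comparisons share libraries. In WT cells 27 members were called higher at 3 or 6 h and lower at 24 h than at 6 h, and 25 were in Aim2-/- cells. Another 4 in each genotype rose early without a called fall from 6 h to 24 h, among them Ifit2, Bst2 and Pnpt1 in both. A group of 12 in WT and 13 in Aim2-/- cells had no called early rise and lay lower at 24 h than at 0 h. With each mouse as a block, Isg15 and Samd9l left that group in WT cells and Oasl1, Mx1 and Samd9l left it in Aim2-/- cells. The 8 genes that stayed in it in both genotypes with and without the block were Ddx58, Epsti1, Ifi27, Ifi27l2a, Mx2, Rsad2, Trim25 and Znfx1. Markers of cell types were read at 24 h against 0 h too. In WT cells 34.8% of all genes were called lower. So were 4 of 6 myeloid, 3 of 6 conventional dendritic cell, 2 of 6 B cell and 2 of 6 neutrophil markers. So were 3 of 5 NK cell and 6 of 7 CD4 T cell markers. Of 6 plasmacytoid dendritic cell markers 2 were lower and 1 higher. In Aim2-/- cells (33.5% of all genes lower) 2 myeloid, 4 conventional dendritic cell, 2 B cell and 2 neutrophil markers were lower. So were 3 NK cell and 5 CD4 T cell markers. Of the plasmacytoid dendritic cell markers 2 were lower and 1 higher there, and 2 of 2 CD8 T cell markers were higher (36.8% of all genes). No CD8 T cell marker was called in WT cells, and no erythroid marker in either genotype. The part of other cells in the fall of the set was not tested.

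Per kilobase of exon, which allows levels of different genes to be compared, Ifi27l2a was the most abundant member at 0 h, with 299.5 ± 67.0 CPM per kb in WT and 354 ± 47.55 CPM per kb in Aim2-/- cells (SD, n = 3). At 24 h Bst2 led, with 136 ± 4.69 and 173 ± 28.0 CPM per kb. Ifi27l2a followed at that time with 106 ± 31.5 and 142.5 ± 26.95 CPM per kb, and the ranges of mean ± SD of both genes overlap in each genotype. Oas1g was the least abundant at every time.

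The members also varied together from mouse to mouse. In the mouse labelled WT 4, 39 of the 44 members at 3 h, 39 at 6 h and 38 at 24 h were the highest of the 3 WT libraries, where 32.9%, 28.9% and 31.8% of all genes were. At 0 h 20 of the 44 were. The median member of WT 4 lay above the mean of the other WT mice by log2 differences of 0.68, 0.51 and 0.47 at 3, 6 and 24 h, and by 0.13 at 0 h. Measured against its own 0 h library, the median change of the members at 3 h was 0.56 in WT 1, 0.66 in WT 3 and 1.16 in WT 4. In Aim2-/- mice 1, 2 and 4 it was 0.51, 0.95 and 0.89. At 24 h the medians were -0.65, -0.40 and 0.05 in the WT and -0.16, -0.13 and -0.17 in the Aim2-/- mice, so that WT mice spread more widely around a lower mean. The median SD of a member within a group, in log2 units, was 0.30 to 0.42 in the 4 WT groups and 0.19 to 0.25 in the 4 Aim2-/- groups, beside 0.12 to 0.19 and 0.19 to 0.23 over all genes.

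**Figure D3:**
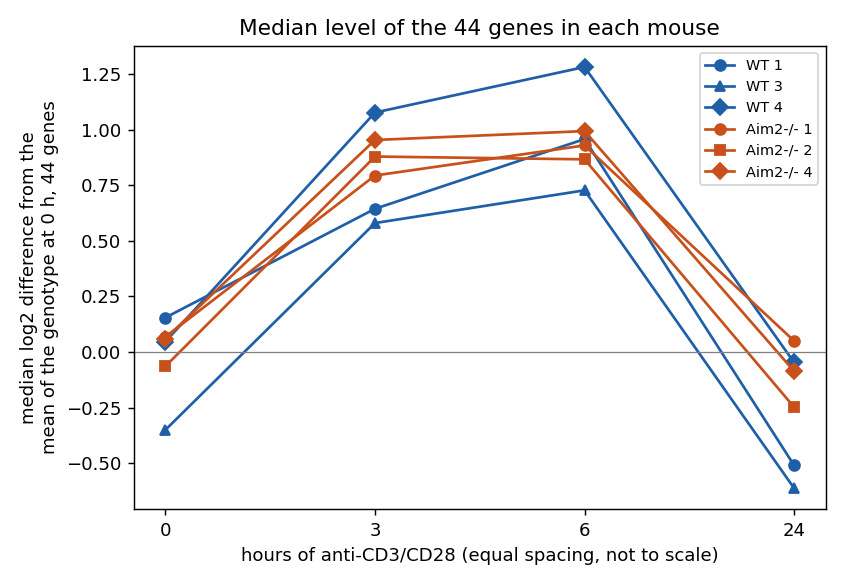
Median over the 44 genes of the log2 difference from the mean of all 6 mice at 0 h, against hours of stimulation, 1 line per mouse. The vertical axis label names the mean of the genotype, but both genotypes share the 1 base. Hours are equally spaced, not to scale. All 6 mice rise to 3 and 6 h and come back at 24 h, WT 4 is the highest at both early times, and the WT lines lie farther apart than the Aim2-/- lines.

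Without mouse WT 4, 21 members were called at 3 h in WT cells in place of 30 (22.5% of all genes, against 32.6% in the full fit), with a median of 0.62 in place of 0.81. The median of -0.44 at 24 h in WT cells moved to -0.21 without the mouse labelled WT 1, and that of -0.08 in Aim2-/- cells ranged from -0.21 to -0.02 as single libraries of mouse 2 at 0 h and 24 h were left out. Deviations from the group means, over the 24 libraries, correlated above 0.5 with the median deviation of the other members for 34 of the 44 genes. The highest were Oasl2 (r = 0.94), Xaf1 (0.91) and Parp9 (0.90), and the lowest were Oas1g (0.15), Mx1 (0.19), Cmpk2 (0.25) and Pnpt1 (0.25). Mx1, Cmpk2 and Rsad2 correlated above 0.5 with the median of the B cell and myeloid markers (0.56, 0.52 and 0.53). The 4 libraries of a mouse share its cells, and genes of a library share its depth, so these correlations are a description.

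Whether the loss of Aim2 altered the set was asked at each time. At 0 h none of the 44 members was called between Aim2-/- and WT cells, where 5.23% of all genes were. With no adjustment 6 members had p under 0.05 (23.8% of all genes), 4 of them higher in Aim2-/- cells, limma-voom called none and DESeq2 called 1 (10.9%). At 3 h 1 member was called (0.294% of all genes), at 6 h none (15.8%) and at 24 h 1 (0.666%). Unadjusted, 8 members passed at 6 h (34.1% of all genes), 2 of them higher, and there limma-voom called none and DESeq2 called 4 (24.2%). At 3 h 11 members passed unadjusted (15.3% of all genes), 1 of them higher, and at 24 h 10 did (20.5%), 9 of them higher. The median log2 difference of the members was 0.07, -0.16, -0.18 and 0.21 at 0, 3, 6 and 24 h, beside -0.01, 0.00, 0.05 and 0.01 over all genes. With 1 library or mouse left out it ranged over -0.12 to 0.13 at 0 h, -0.30 to 0.07 at 3 h, -0.29 to 0.05 at 6 h and 0.12 to 0.48 at 24 h, so in those fits its sign held at 24 h alone. With the 4 libraries of a mouse summed, none was called by edgeR, DESeq2 or limma-voom (0.0117% of 17163 genes by edgeR), and 7 members had an unadjusted p under 0.05 (23.3% of all genes). Without Aim2-/- mouse 2 the counts at 0, 3, 6 and 24 h were 2, 2, 6 and 4, with 2 for the summed libraries, beside 13.7%, 7.31%, 25.7%, 17.3% and 16.7% of all genes in those fits. Leaving out only its 0 h, 6 h or 24 h library gave 1, 5 and 4 members at that time (10.3%, 21.4% and 14.6% of all genes), and leaving out only the 6 h library of the mouse labelled WT 1 gave 2 (10.9%). Without that mouse altogether 1 member was called at each time (5.77%, 2.71%, 11.4% and 1.05% of all genes), with medians of 0.13, -0.24, -0.25 and 0.14, and none for the summed libraries (0.854%).

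The member called at 3 h was Oas1b, at 31.8, 44.3 and 52.7 CPM in WT and 21.5, 23.5 and 22.6 CPM in Aim2-/- cells, with no overlap (7.33% of all genes were lower without overlap). Its log2 difference, Aim2-/- minus WT, was -0.93 (SE 0.19, adjusted p = 0.0307), and it was -1.11 (adjusted p = 0.0053) without the mouse labelled WT 1. The call was lost without libraries of WT 3, WT 4, Aim2-/- 1 or Aim2-/- 4 (highest adjusted p = 0.215, log2 value -0.76). At 0 h (11.4, 11.7 and 9.28 and 8.42, 10.8 and 9.69 CPM) and at 6 h (24.8, 29.3 and 34.5 and 30.1, 27.6 and 24.96 CPM) the libraries of the genotypes overlapped. At 24 h they again did not overlap, with 7.65, 5.55 and 9.95 CPM in WT and 13.2, 10.1 and 10.8 CPM in Aim2-/- cells, now higher in Aim2-/- cells by 0.56 (SE 0.20, adjusted p = 0.135), which was not called.

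The member called at 24 h was Ifi27, at 17.5, 11.1 and 16.8 CPM in WT and 42.5, 25.5 and 26.1 CPM in Aim2-/- cells, also with no overlap (11.1% of all genes were higher without overlap). The difference was 1.05 (SE 0.17, adjusted p = 0.00783), and 1.17 (adjusted p = 0.0106) without the mouse labelled WT 1. This call was lost without libraries of WT 3, WT 4 or Aim2-/- 1 (highest adjusted p = 0.117, log2 value 0.86). Before 24 h the largest difference of Ifi27 was 0.21 (SE 0.15, adjusted p = 0.348) at 6 h, which was not called. Myeloid markers summed to 13.5 to 26.9 CPM in WT and 32.8 to 166 CPM in Aim2-/- libraries at 24 h, and neutrophil markers to 2.77 to 3.55 and 8.96 to 72.2 CPM. The neutrophil marker Retnlg was at 0 in WT libraries at that time, and S100a8 and Ly6g lay under the floor of 3 counts in each of them. Their part in the Ifi27 difference was not tested.

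Without the mouse labelled WT 1, Trim25 at 0 h (-0.46, adjusted p = 0.0416) and Mx1 at 6 h (1.39, adjusted p = 0.0489) were called, besides Oas1b at 3 h and Ifi27 at 24 h. With all mice Mx1 stood at 1.00 (SE 0.40, adjusted p = 0.0834) at 6 h, then 1.09 (SE 0.44, adjusted p = 0.181) at 24 h. Isg15 stood at 0.67 (SE 0.29, adjusted p = 0.165) at 0 h, then 0.73 (SE 0.31, adjusted p = 0.191) at 24 h, and its libraries overlapped between the genotypes at all 4 times.

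**Figure D4:**
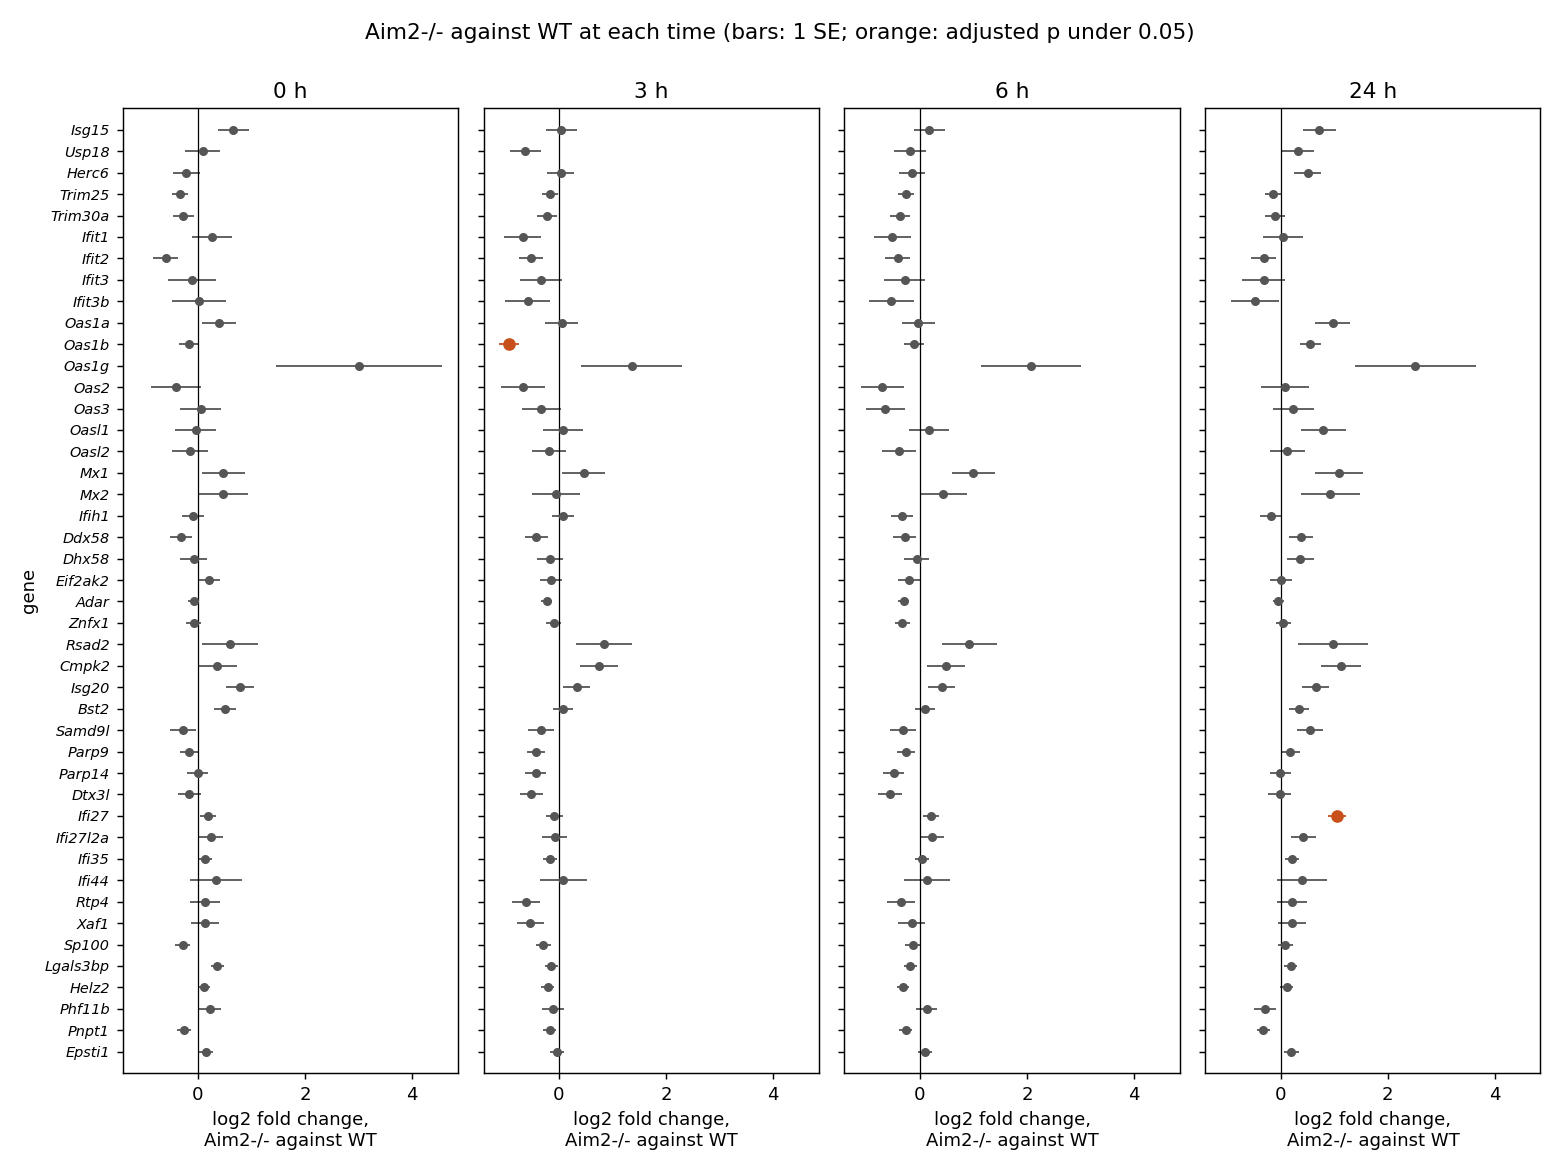
Log2 fold change of each of the 44 genes in Aim2-/- against WT cells at 0, 3, 6 and 24 h (horizontal axes), with bars of 1 SE and calls at an adjusted p under 0.05 in orange. Oas1b at 3 h (-0.93) and Ifi27 at 24 h (1.05) are the only orange points, and most other genes lie within 1 of 0, with Oas1g, a gene near the floor, far to the right on wide bars.

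The change with stimulation was compared between the genotypes by an interaction term. None of the 44 members was called at 3, 6 or 24 h, where 0%, 0.0261% and 0% of all genes were. Unadjusted, 2, 2 and 4 members had p under 0.05 (4.26%, 13.2% and 11.9% of all genes), limma-voom called none at any time, and DESeq2 called 1 at 24 h (1.46%). With each mouse as a block, Helz2 and Lgals3bp were called at 6 h and Ifi27 at 24 h (4.68% and 2.77% of all genes). The change of Helz2 from 0 h to 6 h was -0.14 (SE 0.11, adjusted p = 0.307) in WT and -0.58 (SE 0.11, adjusted p = 0.000247) in Aim2-/- cells, and the blocked difference of the genotypes was -0.43 (SE 0.12, adjusted p = 0.0426). Lgals3bp rose by 1.52 in WT and 0.99 in Aim2-/- cells at 6 h, a blocked difference of -0.54 (SE 0.15, adjusted p = 0.0408). The log2 fold change of Ifi27 at 24 h was -2.38 and -1.52, a blocked difference of 0.85 (SE 0.18, adjusted p = 0.0176). Without the mouse labelled WT 1 the fit with no block called no member at any time, with median differences of -0.43, -0.35 and 0.03 at 3, 6 and 24 h. With the block and without that mouse, a fit added after the data were seen, Helz2 (-0.54, adjusted p = 0.0259) and Lgals3bp (-0.62, adjusted p = 0.0444) were called at 6 h and Ifi27 (0.92, adjusted p = 0.0227) at 24 h, besides Rtp4 at 3 h (-1.06, adjusted p = 0.0477), then Rtp4 (-0.89, adjusted p = 0.0288) and Parp14 (-0.70, adjusted p = 0.0374) at 6 h.

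Genes of the interferon pathway outside the set were read beside it. Of 51 such genes, 32 were tested. In WT cells 17, 17 and 10 were called higher at 3, 6 and 24 h and 5, 8 and 15 lower, and in Aim2-/- cells 14, 17 and 9 higher and 7, 8 and 17 lower. Of the 18 genes for type I interferons, 7 had any count. They held at most 2 counts per gene and library and 22 counts over all 24 libraries, below the floor of 3 counts (0.139 to 0.152 CPM), and their transcripts were not detectable at this depth.

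The receptor genes moved apart. Ifnar1 in WT cells stood at 346, 381 and 403 CPM at 0 h, 181, 176 and 218 at 3 h, 137, 118 and 143 at 6 h, and 68.8, 69.1 and 77.9 at 24 h. Ifnar1 in Aim2-/- cells stood at 352, 387 and 377 CPM at 0 h, 202, 192 and 181 at 3 h, 139, 139 and 128 at 6 h, and 74.4, 84.2 and 74.03 at 24 h. No groups of different times overlapped in either genotype, and each was below the one before. The log2 fold change of Ifnar1 was -0.97 (SE 0.09, adjusted p = 1.26e-07) at 3 h, then -2.39 (SE 0.10, adjusted p = 3.49e-14) at 24 h in WT cells, and -0.96 (SE 0.09, adjusted p = 2.56e-07) and -2.26 (SE 0.10, adjusted p = 1.04e-13) in Aim2-/- cells. Ifnar2 rose at 3 h in WT cells by 0.62 (SE 0.10, adjusted p = 5.11e-05) and fell at 24 h, to -0.65 in WT and -0.69 in Aim2-/- cells. At 3 h in Aim2-/- cells it stood at 0.24 (SE 0.10, adjusted p = 0.0735), called with each mouse as a block (0.24, SE 0.08, adjusted p = 0.0235). Ifngr1, a chain of the interferon gamma receptor, fell at 24 h, with -3.74 (SE 0.18, adjusted p = 3.03e-13) and -3.30 (SE 0.18, adjusted p = 1.97e-12).

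Stat2, which encodes a subunit of ISGF3, in WT cells stood at 117, 120.5 and 114 CPM at 0 h, 310.1, 389 and 518 at 3 h, 198, 276 and 339.6 at 6 h, and 63.2, 61.2 and 98.3 at 24 h. Stat2 in Aim2-/- cells stood at 125, 123 and 119.8 CPM at 0 h, 273, 311 and 323 at 3 h, 228, 231 and 235 at 6 h, and 109.7, 86.1 and 98.8 at 24 h. The 3 h and 6 h libraries lay above all 0 h libraries and the 24 h libraries below them. Stat2 rose at 3 h by 1.79 (SE 0.19, adjusted p = 4.12e-07) and 1.30 (SE 0.19, adjusted p = 2.36e-05). Irf9, the DNA-binding subunit, rose at 3 h in WT cells by 0.56 (SE 0.13, adjusted p = 0.00159), stood at 0.25 (SE 0.13, adjusted p = 0.149) in Aim2-/- cells, where the block called it (0.25, SE 0.09, adjusted p = 0.024), and fell at 24 h, to -1.26 and -1.14.

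Irf7, the factor that amplifies interferon production, stood in WT cells at 72.5, 71.7 and 98.8 CPM at 0 h, 180.4, 202 and 338 at 3 h, 119, 155 and 238 at 6 h, and 20.4, 19.6 and 40.1 at 24 h. Irf7 in Aim2-/- cells stood at 88.1, 87.2 and 92.3 CPM at 0 h, 125, 202 and 166 at 3 h, 121, 149.5 and 151 at 6 h, and 31.96, 29.6 and 35.7 at 24 h. Its early libraries lay above 0 h and its 24 h libraries below, in both genotypes. Irf7 rose at 3 h by 1.57 (SE 0.27, adjusted p = 0.000142) in WT and 0.88 (SE 0.27, adjusted p = 0.0169) in Aim2-/- cells, and at 24 h had fallen below 0 h, to -1.60 and -1.46. Irf1, a target of interferon gamma and of T cell activation, rose at 3 h by 1.80 (SE 0.15, adjusted p = 1.29e-08) and 1.17 (SE 0.14, adjusted p = 3.89e-06). With each mouse as a block the rise of Irf1 differed between the genotypes, by -0.63 (SE 0.12, adjusted p = 0.0498). Irf8 rose more in WT cells, by 3.57 at 6 h and 4.95 at 24 h against 2.26 and 3.65 in Aim2-/- cells, with a blocked difference of -1.36 (SE 0.32, adjusted p = 0.0205) at 6 h, then -1.34 (SE 0.32, adjusted p = 0.0262) at 24 h. At 0 h Irf8 was higher in Aim2-/- cells, by 0.95 (SE 0.26, adjusted p = 0.0398). Socs1, the feedback inhibitor of JAK kinases, rose at 3 h by 4.28 (SE 0.26, adjusted p = 3.7e-10) and 3.10 (SE 0.24, adjusted p = 1.65e-08), and was higher in Aim2-/- cells at 0 h, by 0.88 (SE 0.24, adjusted p = 0.037). Without a block none of the 32 was called in an interaction. With the block 1, 3 and 5 were at 3, 6 and 24 h (4.68% and 2.77% of all genes at 6 and 24 h). Besides Irf1 and Irf8 these were Jak2 at 6 h (-0.82, adjusted p = 0.00984) and 24 h (-0.62, adjusted p = 0.0219), and Ptpn6 (-0.52) and Tlr9 (-2.685, SE 0.72) at 24 h. Ikbke went the other way, by 0.50 at 6 h and 0.64 at 24 h. Tlr9 was near the floor, with 2 to 59 counts per library and at most 3 counts in 4 of the 24 libraries, so its value is uncertain. With the block and without the mouse labelled WT 1, the difference of Irf1 at 3 h was -0.69 (adjusted p = 0.0289), and that of Irf8 was -1.22 (adjusted p = 0.0721) at 6 h, then -1.13 (adjusted p = 0.088) at 24 h, both not called. Between the genotypes 3, 0, 2 and 1 of the 32 were called at 0, 3, 6 and 24 h, all higher in Aim2-/- cells, and 1 of the 3 at 0 h is not reported here. Those of 6 h were Irf5, a factor that drives inflammatory cytokines (1.14, SE 0.34, adjusted p = 0.0332), and Tyk2 (0.31, SE 0.10, adjusted p = 0.0386), and that of 24 h was Socs3, a feedback inhibitor (0.73, SE 0.17, adjusted p = 0.0481). The call of Irf5 was lost without libraries of WT 3, WT 4, Aim2-/- 1 or Aim2-/- 4 (highest adjusted p = 0.208, log2 value 0.79), that of Tyk2 without libraries of WT 1, WT 3, WT 4, Aim2-/- 1 or Aim2-/- 4 (highest adjusted p = 0.273, log2 value 0.18), and that of Socs3 without libraries of WT 1, WT 3, WT 4, Aim2-/- 1 or Aim2-/- 4 (highest adjusted p = 0.444, log2 value 0.65). The myeloid and B cell marker sums given above were higher in Aim2-/- cells at the same time, and their part in the 0 h differences was not tested. The 3 h call of Irf7 in Aim2-/- cells was lost without libraries of Aim2-/- 1, Aim2-/- 2 or Aim2-/- 4 (highest adjusted p = 0.175, log2 value 0.69), the 0 h call of Irf8 without libraries of WT 1, WT 3, WT 4, Aim2-/- 1 or Aim2-/- 4 (highest adjusted p = 0.318, log2 value 0.58), and that of Socs1 without libraries of WT 1, WT 3, WT 4, Aim2-/- 1 or Aim2-/- 4 (highest adjusted p = 0.247, log2 value 0.68).

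Ifng, the interferon that T cells make, stood in WT cells at 16.04, 9.81 and 15.9 CPM at 0 h, 69.2, 34.2 and 42.03 at 3 h, 99.1, 63.05 and 121 at 6 h, and 103, 63.3 and 121 at 24 h. Ifng in Aim2-/- cells stood at 31.8, 16.5 and 32.03 CPM at 0 h, 63.5, 58.7 and 175 at 3 h, 136, 119 and 238 at 6 h, and 434, 169.5 and 345 at 24 h. All stimulated libraries lay above those of 0 h. Its rise at 24 h was 2.78 (SE 0.46, adjusted p = 1.75e-05) in WT and 3.56 (SE 0.47, adjusted p = 7.59e-07) in Aim2-/- cells, and the genotypes at 24 h did not overlap, at 1.73 (SE 0.43, adjusted p = 0.0605), which missed the threshold, and 1.78 (adjusted p = 0.105) without the mouse labelled WT 1. From 6 h to 24 h Ifng was not called in WT (0.02, SE 0.42, adjusted p = 0.972) or Aim2-/- cells (0.95, SE 0.42, adjusted p = 0.0634). With each mouse as a block it was called higher in Aim2-/- cells (0.94, SE 0.22, adjusted p = 0.000879). This is the interval over which 38 of the 44 interferon-stimulated genes were called lower in either genotype.

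**Figure D5:**
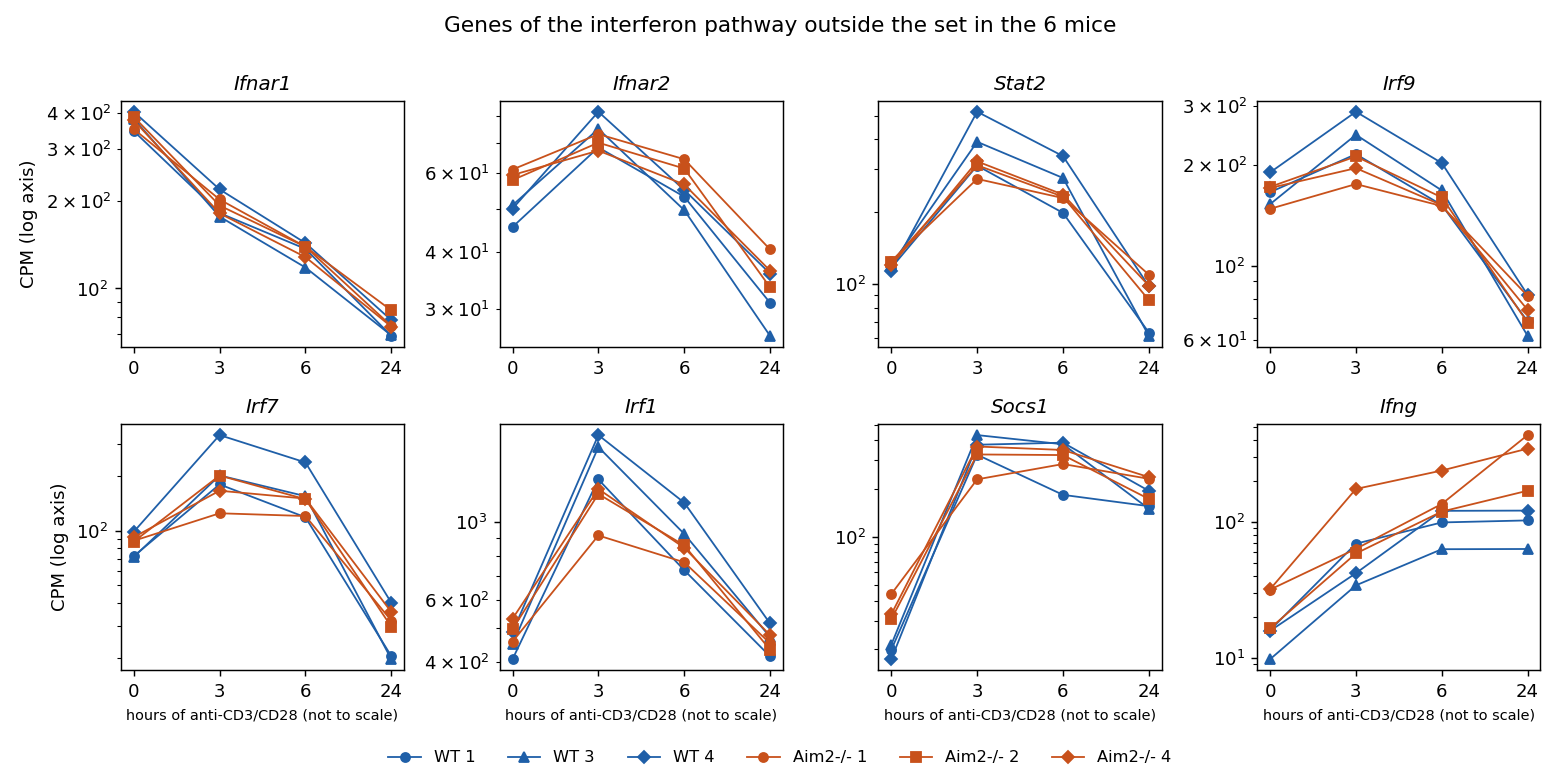
CPM (log axes) of the receptor genes Ifnar1 and Ifnar2, the factor genes Stat2, Irf9, Irf7 and Irf1, the inhibitor gene Socs1, and Ifng, against hours of stimulation, 1 line per mouse, with WT in blue and Aim2-/- in orange. Ifnar1 falls at every step in all 6 mice, Stat2 and Irf7 peak at 3 h, and Ifng is at 63.3 to 121 CPM in WT and 169.5 to 434 CPM in Aim2-/- cells at 24 h.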

How the data were processed

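RNA of splenic CD4+ T cells was sequenced in 24 libraries (8 groups of 3, each library from 1 mouse and 1 time). The raw counts per gene were deposited by the authors, who aligned the reads with STAR to GRCm38 with an Ensembl annotation; the submitters' processing notes also name DESeq2 and edgeR. Versions, and whether counting used strand, are not given in the sources used here. Symbols came from GENCODE M21 (54409 of 54446 identifiers matched). No 2 libraries were identical (0 pairs).

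Counts were scaled by TMM and fitted in edgeR 4.0.16 (R 4.3.3, quasi-likelihood test, 8 group means, all 24 libraries, filterByExpr with a minimum count of 10, biological coefficient of variation 18.6%). The p-values, two-sided, were adjusted by Benjamini-Hochberg over all 15325 genes and called under 0.05. CPM values use the TMM library sizes, log2 levels a prior count of 2. A count of 3 was taken as the floor (0.139 to 0.152 CPM per library); floors cover counting error only. Replicates were separate mice per the labels. The fits with limma 3.58.1 (voom) and DESeq2 1.42.0, RLE scaling, library totals alone, no filter on low counts, a mean of at least 1 CPM, only the groups compared, the mouse or the mouse number as a block, and each library or mouse left out were alternatives, and the mouse block without the mouse labelled WT 1 was added after the data were seen. The edgeR fit with and without the mouse block, limma-voom and DESeq2 were tried on simulated counts, which held no effect of the mouse. The other steps were not tried on simulated data. Promoters were searched and summaries drawn in Python 3.11.15.

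The labels tie the libraries to mice. Deviations from the group means correlated at 0.139 to 0.567 over 36 pairs of libraries of the same mouse. Over 72 pairs of different mice of a genotype at different times they correlated at -0.432 to 0.0742. Deviations within a group cancel out, so these ranges are not independent of each other. By the labels the mouse is a block within a genotype, whereas mouse numbers shared by the genotypes name different animals.

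The members and lists were chosen with earlier results of these data known. Named were Isg15, Ifit1, Ifit3, Mx1, Usp18 and Irf7, a further gene not reported here, per comparison up to 4 called members with the largest rise and 4 with the largest fall at a mean of at least 1 CPM in the higher group, and every other member by its role.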

Additional observations from a re-analysis of the deposited data

Results flagged for a closer look

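A test of the difference itself set the change with stimulation apart between the genotypes for 3 of the 44 genes where each mouse was taken as a block. These were 2 genes at 6 h and 1 at 24 h. Of all genes 4.68% and 2.77% were called in that fit, shares that the set did not exceed. For Helz2 at 6 h the difference, Aim2-/- minus WT on the log2 scale, was -0.43 (SE 0.12, adjusted p = 0.0426 under edgeR), against an adjusted p of 0.245 without the block. For Lgals3bp at 6 h it was -0.54 (SE 0.15, adjusted p = 0.0408), against 0.176. For Ifi27 at 24 h it was 0.85 (SE 0.18, adjusted p = 0.0176), against 0.14. Helz2 and Lgals3bp passed only in fits with the mouse block, whereas Ifi27 also passed without one by DESeq2 (0.85, adjusted p = 0.0212), with no filter on low counts (0.84, adjusted p = 0.0111) and without the 24 h library of Aim2-/- mouse 2 (0.99, adjusted p = 0.043). Groups of 3 libraries are too small for the test of a sample far from the others, so none was made.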

How the results depend on the processing

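The counts of members called in the 8 comparisons of time stayed within 1.5 times under every alternative tried. With each mouse as a replicate block they went from 30, 31 and 27 to 34, 33 and 30 at 3, 6 and 24 h in WT cells, from 27, 30 and 21 to 31, 36 and 28 in Aim2-/- cells, and from 39 to 40 between 6 and 24 h in both. No call was lost with the block, and calls gained by named genes are given above. With 1 library or mouse left out, the counts ranged over 21 to 30, 26 to 31 and 23 to 30 in WT cells, 18 to 25, 27 to 31 and 17 to 22 in Aim2-/- cells, and 37 to 40 and 34 to 40 between 6 and 24 h.

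Counts between the genotypes were small and moved more. At 0 h (0 called) DESeq2 called 1 (10.9% of all genes) and the fit with no filter on low counts 4. At 3 h (1 called) no filter gave 4 and only the groups compared 0. At 6 h (0 called) RLE gave 1, DESeq2 4 (24.2% of all genes), no filter 9 and a mean of at least 1 CPM 2. At 24 h (1 called) DESeq2 gave 2, no filter 4 and only the groups compared 0. The main fit called 5.23%, 0.294%, 15.8% and 0.666% of all genes at 0, 3, 6 and 24 h. Shares of all genes in the other fits are not given here, so their counts are not read as a difference of the set. With the mouse number as a replicate block, a pairing of different animals (same number r -0.165 to 0.300 over 32 pairs, other number -0.301 to 0.290 over 112), the counts were 5, 14, 17 and 8 at the 4 times and 6 for the summed libraries (23.6%, 15.2%, 36%, 21.1% and 12.2% of all genes). For the interaction, the mouse block gave 2 at 6 h and 1 at 24 h (with the mouse labelled WT 1 also left out, 1, 4 and 1 at 3, 6 and 24 h), and DESeq2 and no filter gave 1 each at 24 h. With 1 library or mouse left out, the counts ranged over 0 to 2, 0 to 2, 0 to 6 and 0 to 4 at 0, 3, 6 and 24 h, 0 to 2 for the summed libraries, and 0 to 0, 0 to 0 and 0 to 1 for the interaction. The causes were not tested. No called log2 fold change turned its direction under an alternative. Medians not tied to a call did, with a library or mouse left out: between the genotypes at 0, 3 and 6 h as given above, in the interaction at 3 h (-0.43 to 0.01) and 6 h (-0.35 to 0.07), and for the summed libraries (-0.22 to 0.07). Of 246 calls over all comparisons, 197 were kept in every fit with a library or mouse left out. The adjusted p of Oas1b at 3 h ranged over 0.000121 to 0.252 in 21 fits, and that of Ifi27 at 24 h over 9.08e-08 to 0.187. Under plain library totals the median of all genes moved (log2) by 0.107 in WT cells at 3 h and by 0.116 and 0.12 in Aim2-/- cells at 3 and 6 h. Low counts limited what could be read for Oas1g, Tlr9 and the type I interferon genes. Whether depth or the division of reads between like genes set these counts was not tested.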
